A study of Mus musculus with 8 samples.

Results

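The galectins are a family of secreted and cytosolic lectins, and Lgals3bp is a secreted glycoprotein that binds several of them. Rows of the deposited array table that carry exactly 1 gene symbol were taken for Lgals3bp and for the galectin genes Lgals1, Lgals3, Lgals4, Lgals7, Lgals8, Lgals9 and Lgals12, which gave 8 genes, each with 1 row, of 19938 genes with such a row. All 8 lay above the brightness filter on all 8 arrays and were among the 15174 genes tested. The set was chosen by the measured difference of Lgals3bp between these groups, with its gene family added, so the 8 differences are given as a description and not as tests. The arrays carried RNA from the full thickness of the skin, taken from mouse embryos at E17.5, on a mixed C57BL6/SV129 background. The 4 arrays of skin labelled PpargΔ/Δ are called labelled-null arrays here, and the 4 of skin labelled PPARgamma wildtype are called control arrays. PPARgamma, the product of Pparg, is a lipid-sensing nuclear receptor needed to form fat cells, and the comparison asks how the skin differs where the gene is deleted. The labels give no litter or sex, nor whether each array is 1 embryo, nor which part of Pparg was deleted or by what driver.

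Galectins bind beta-galactosides on glycoproteins through a conserved carbohydrate recognition domain. They cross-link receptors and matrix at the cell surface and also act inside cells. Prototype galectins (Lgals1, Lgals7) have a single recognition domain, tandem-repeat galectins (Lgals4, Lgals8, Lgals9, Lgals12) have a linked pair, and Lgals3 joins its domain to a flexible tail through which it forms oligomers. Lgals3bp carries many N-glycans, forms ring-like polymers, binds galectins and matrix proteins, and is induced by interferon in mouse and human cells. In skin, Lgals7 is made by keratinocytes, Lgals3 by keratinocytes and macrophages, Lgals1 by fibroblasts and other mesenchymal cells, and Lgals12 by adipocytes.

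The array medians lay between 6.93 and 6.96 on the log2 scale, and arrays correlated pairwise at r = 0.989 to 0.994 over all rows. Pparg itself read 9.14, 9.19, 9.19 and 8.98 on the labelled-null arrays, against 8.79, 8.88, 9.04 and 9.06 on the control arrays (log2 values, replicates 1 to 4). Pparg signal was thus no lower in the group labelled deleted (difference 0.18, SE 0.08). Whether its probes lie in the deleted part is not known here, so the row does not check the deletion. Directions below are those of the labels. Markers of skin were present: all 8 genes of the basal epidermis list and all 9 dermal fibroblast genes found on the array passed the brightness filter. Xist was high on labelled-null arrays 3 and 4 and on control arrays 1 and 4 (12.10 to 12.27) and low on the other 4 (4.86 to 5.39). Each value averages over the tissues of the skin, and fewer cells of a type cannot be told apart from less RNA per cell. The 4 arrays a group limit the precision, and any p-value measures only the spread between these RNAs, which may be technical.

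The promoters of Lgals3bp, the gene with the largest difference among the 8, and of Lgals9 are shown because both genes are known to respond to interferon and the levels of interferon genes on the same arrays are given below. Each run holds 250 bases before and 50 after the annotated start in RefSeq (build GRCm38.p6), read 5′ to 3′ on the gene's strand, and capitals mark matches on either strand to AANNGAAA, the core that interferon regulatory factors bind. Lgals3bp lies on the minus strand at chr11:118401910-118402209 and Lgals9 on the minus strand at chr11:78984875-78985174.
Lgals3bp: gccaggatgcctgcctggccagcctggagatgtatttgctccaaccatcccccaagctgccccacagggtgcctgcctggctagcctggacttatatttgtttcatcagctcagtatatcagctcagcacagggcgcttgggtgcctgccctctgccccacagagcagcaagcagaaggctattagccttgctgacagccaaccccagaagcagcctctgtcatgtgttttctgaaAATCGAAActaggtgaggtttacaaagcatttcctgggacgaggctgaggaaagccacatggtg
Lgals9: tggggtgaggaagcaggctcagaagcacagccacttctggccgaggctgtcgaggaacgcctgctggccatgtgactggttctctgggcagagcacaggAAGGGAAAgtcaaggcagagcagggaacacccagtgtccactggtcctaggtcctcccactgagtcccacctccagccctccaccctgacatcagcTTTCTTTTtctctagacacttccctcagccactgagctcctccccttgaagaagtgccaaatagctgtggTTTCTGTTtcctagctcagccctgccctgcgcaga
The Lgals3bp window held 1 such match, AATCGAAA, at bases -14 to -7 from the start. The Lgals9 window held 3, of which TTTCTTTT at -55 to -48 and TTTCTGTT at 16 to 23 are on the opposite strand. Among 32851 promoter windows searched, 23.9% held AANNGAAA, and 2 of the 6 windows found for the 8 genes did (Lgals3, Lgals4, Lgals7 and Lgals8 were the other four). AGGTCA, the half-site of PPAR-type receptors, was in 16.3% of all windows and in 0 of these 6. A match is a description of letters, and no match says only that the letters are not in that window.

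Lgals3bp was lower on every labelled-null array than on every control array. It read 7.22, 7.63, 7.14 and 7.14 on the labelled-null arrays, against 7.94, 7.97, 8.03 and 8.15 on the control arrays (log2 values, replicates 1 to 4). Labelled-null array 2 was the highest of its group by far, and still lay 0.31 below the lowest control array. The means were 7.28 ± 0.24 on the labelled-null arrays and 8.02 ± 0.09 on the control arrays (SD, n = 4 each), a difference of -0.74 (SE 0.11), or 1.67-fold lower on the RMA scale. Without labelled-null array 2 the difference was -0.85, and leaving out any other single array gave -0.77 to -0.69. Of the 8 genes, Lgals3bp alone had groups that do not overlap, where 2.45% of all tested genes had such groups, and Lgals3bp alone was past a limma adjusted p of 0.05, where 0.119% of tested genes were. Nothing is read from these counts, since this contrast chose the genes. Its call held in 6 of 19 alternative fits.

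**Figure D1:**
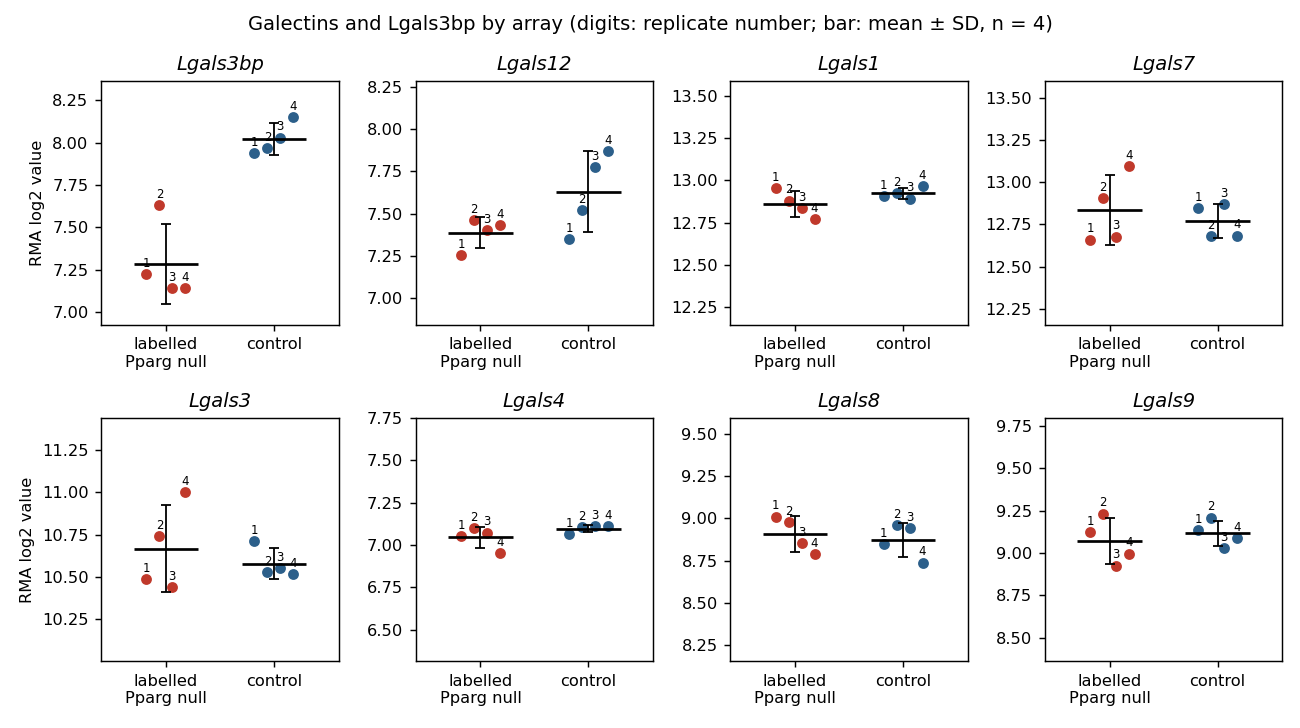
RMA log2 values (y axis, of equal span in every panel) of the 8 genes on the 4 labelled-null arrays (red, left) and the 4 control arrays (blue, right), with digits for the replicate number and bars for the mean ± SD. The Lgals3bp groups are apart (7.14 to 7.63 against 7.94 to 8.15), and the groups overlap in the other 7 panels.

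Interferon response genes, which share this inducer with Lgals3bp, lay slightly lower on the labelled-null arrays with no gene past the test. Of 20 tested genes, 18 lay below control and 2 above, with a median difference of -0.11, where the median over all tested genes was 0.00 and 50.3% lay below. None passed limma's adjusted p of 0.05 over all genes, and 1 had an unadjusted p under 0.05, as 3.61% of all tested genes did. Ifit3, an antiviral protein that binds foreign RNA with its relatives, was at 5.96 ± 0.22 on the labelled-null arrays and 6.29 ± 0.18 on the control arrays (SD, n = 4 each; limma adjusted p = 0.9995). Ifi27l2a and Oas2, both induced by interferon, differed by -0.24 and -0.16 with the same adjusted p, and Oas2 ranged from -0.23 to -0.09 and Ifi27l2a from -0.31 to -0.14 when arrays were left out.

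The mean of these 20 genes was 6.93, 6.99, 6.70 and 6.70 on the labelled-null arrays, against 6.88, 6.94, 7.0004 and 6.98 on the control arrays (log2, replicates 1 to 4). The groups overlapped. Labelled-null array 2, the highest of its group for Lgals3bp, was also the highest of its group here, and arrays 3 and 4, both high in Xist, were the lowest for both. After subtraction of group means, Lgals3bp and the list mean correlated at r = 0.80 over the 8 arrays, and at 0.66 without labelled-null array 2. The value was not particular to Lgals3bp: Lgals1 correlated with the same mean at r = 0.71 (0.78 without that array), Lgals4 at 0.66 and Lgals8 at 0.63. Lgals3bp also correlated with the means of other lists counted below. The values were 0.63 for galectin partners, 0.55 for basal epidermis genes and -0.68 for the scavenger receptor family. Without labelled-null array 2 they were 0.56, 0.50 and -0.37. Over the 8 arrays the remaining lists gave smaller absolute values. The points share the array and its normalization, and the values are descriptions. On labelled-null arrays 1 and 2 the interferon mean lay inside the control range and Lgals3bp below its own control range. The part of interferon signalling in the Lgals3bp difference was not tested.

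**Figure D2:**
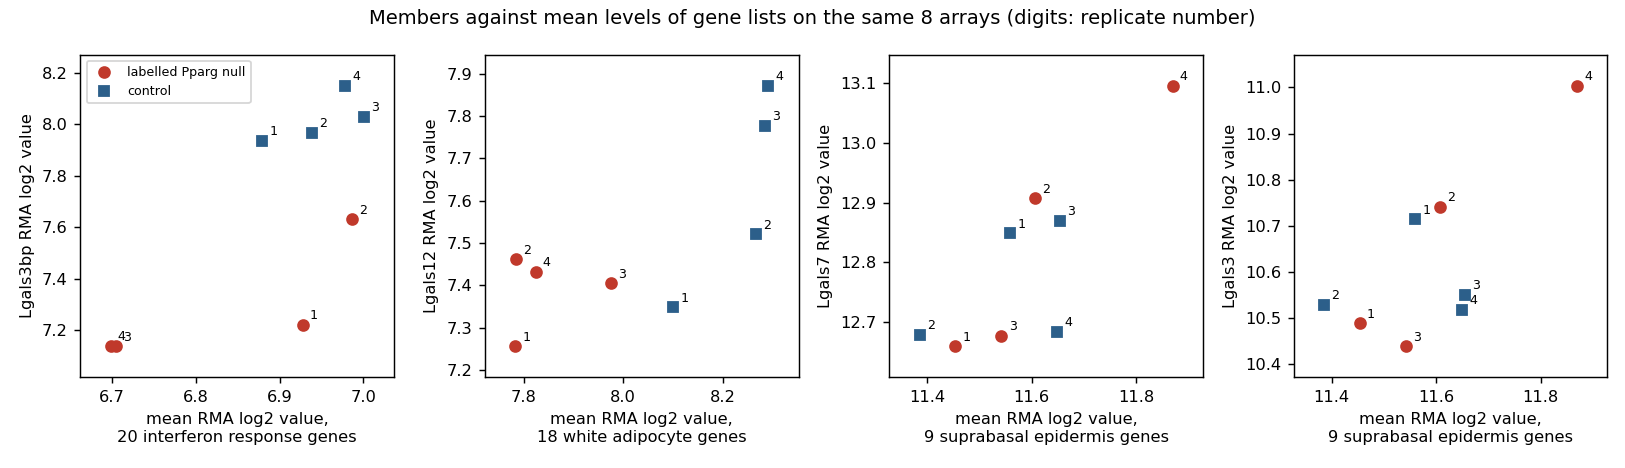
RMA log2 values of a gene (y axis) against the mean RMA log2 value of a gene list on the same array (x axis), for Lgals3bp with interferon response genes, Lgals12 with white adipocyte genes, and Lgals7 and Lgals3 with suprabasal epidermis genes. Red circles are labelled-null arrays, blue squares control arrays, and digits the replicate number; Lgals3bp at 7.22 and 7.63 on labelled-null arrays 1 and 2 lies below the control arrays at similar interferon means, and labelled-null array 4 is highest in the last pair of panels.

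Lgals3bp is also a product of macrophages and binds matrix, so genes of both kinds were counted. Of 17 tested macrophage genes 10 lay below control and 7 above (median -0.02), and none passed. Their mean ran from 7.73 to 7.96 on the labelled-null arrays, around the control range of 7.84 to 7.93. Lyve1, a hyaluronan receptor of lymphatic vessels and of some tissue macrophages, was at 9.95 ± 0.18 on the labelled-null arrays and 10.14 ± 0.04 on the control arrays (SD, n = 4 each; limma adjusted p = 0.9995), and Folr2, a folate receptor of resident macrophages, differed by -0.25 with the same adjusted p.

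The partners of galectins showed no member past the test. The 24 tested genes encode surface, matrix, lysosomal and other proteins that galectins or Lgals3bp bind. Of these, 13 lay below control and 11 above, with a median of -0.01. Nid1, a basement membrane protein that binds Lgals3bp, was at 10.86 ± 0.14 on the labelled-null arrays and 11.06 ± 0.07 on the control arrays (SD, n = 4 each; limma adjusted p = 0.9995). Fn1, the matrix protein fibronectin, differed by -0.08, and the tetraspanin Cd9 by 0.09. Of 20 glycosyltransferases and related genes that build or mask the glycans galectins read, 11 lay below and 9 above (median 0.00), and 0 passed in limma, with 0 at an unadjusted p under 0.05. Mgat5, which adds the branch that galectins bind best, differed by -0.11 and Mgat4b, another branching enzyme, by -0.13. The sialyltransferase St3gal6 was at 8.29 ± 0.08 on the labelled-null arrays and 8.19 ± 0.04 on the control arrays (SD, n = 4 each; limma adjusted p = 0.9995). It was the 1 gene of the 20 with groups that did not overlap, where 2.45% of all tested genes had such groups. The gap between its groups was only 0.0035.

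Lgals3bp belongs to the proteins with a scavenger receptor cysteine-rich domain. Of 15 tested genes of that family 11 lay below control and 4 above (median -0.05), and none passed. Prss12, a secreted serine protease, ran from 6.95 to 7.07 on the labelled-null arrays, against 7.12 to 7.22 on the control arrays, a difference of -0.18 (limma adjusted p = 0.799). Corin, a membrane protease known from heart and from the dermal papilla of hair follicles, differed by -0.19 (limma adjusted p = 0.9995). The list mean spanned 6.68 to 6.80 on the labelled-null arrays, against 6.74 to 6.83 on the control arrays.

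Lgals12, the galectin of adipocyte lipid droplets that restrains lipolysis in mice, had the next largest difference. It read 7.26, 7.46, 7.40 and 7.43 on the labelled-null arrays, against 7.35, 7.52, 7.78 and 7.87 on the control arrays (log2 values, replicates 1 to 4). Control arrays 2, 3 and 4 lay above all labelled-null arrays, and control array 1 lay within them. The means were 7.39 ± 0.09 on the labelled-null arrays and 7.63 ± 0.24 on the control arrays (SD, n = 4 each), a difference of -0.24 (SE 0.11), equal to the SD of the control arrays. Without control array 1 it was -0.33, without control array 4 it was -0.16, and it kept its sign in all 19 alternative fits. Its absolute difference exceeded that of 98.3% of tested genes.

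White adipocyte genes lay lower on the labelled-null arrays, and the same control array stood closest to them. Of 18 tested genes 15 lay below control and 3 above (median -0.28), and 5 were past limma's adjusted p of 0.05, all lower, where 0.112% of all tested genes passed in that direction. The list was drawn up with these differences known and is no independent evidence. Cd36, a fatty acid transporter, was at 8.90 ± 0.14 on the labelled-null arrays and 9.82 ± 0.09 on the control arrays (SD, n = 4 each; limma adjusted p = 0.00585). Lpl, the lipase that frees fatty acids from lipoproteins, was at 9.05 ± 0.25 on the labelled-null arrays and 10.05 ± 0.20 on the control arrays (limma adjusted p = 0.0276). Fabp4, a fatty acid carrier, differed by -1.13, the glycerol channel Aqp7 by -0.85, and Trarg1, a regulator of glucose transporter trafficking, by -0.64. The number past the threshold was 1 without labelled-null array 1 or 2 or control array 2 or 4, and 2 without control array 3. It was 3 with Xist class as a block, where Lpl and Aqp7 did not pass, and 1 with the replicate block or with every row on its own. Cd36 passed in all 19 alternative fits, Fabp4 in 12, Lpl in 11 and Trarg1 in 10 of 19, and Aqp7 in 9 of 18.

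The mean of the 18 genes was 7.78, 7.78, 7.98 and 7.82 on the labelled-null arrays, against 8.10, 8.27, 8.28 and 8.29 on the control arrays (log2, replicates 1 to 4). These groups did not overlap, and control array 1 was the lowest control array both here and for Lgals12. After subtraction of group means, Lgals12 and the list mean correlated at r = 0.61 over the 8 arrays, and at 0.83 with the mean of the 8 basal epidermis genes, whose groups overlapped (10.50 to 10.58 on the labelled-null arrays, against 10.53 to 10.62). The part of adipocyte content in the Lgals12 difference was not tested.

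The epidermal galectins Lgals7 and Lgals3 did not separate the groups and moved together over the arrays. Lgals7 read 12.66, 12.91, 12.68 and 13.10 on the labelled-null arrays, against 12.85, 12.68, 12.87 and 12.68 on the control arrays (log2 values, replicates 1 to 4). Lgals3 read 10.49, 10.74, 10.44 and 11.00 on the labelled-null arrays, against 10.71, 10.53, 10.55 and 10.52 on the control arrays. Labelled-null array 4 was the highest of all 8 for both genes and array 2 came next. The differences were 0.06 (SE 0.10) for Lgals7 and 0.09 (SE 0.12) for Lgals3, both smaller than the SD of the labelled-null arrays (0.21 and 0.26). Without labelled-null array 4 both changed sign, to -0.02 each.

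The deviations of Lgals7 and Lgals3 from their group means correlated at r = 0.93 over the 8 arrays, and at 0.86 without labelled-null array 4, the highest value among the 28 pairs of the 8 genes. Suprabasal epidermis genes followed the same array. Of the 9 tested, 6 lay above control and 3 below (median 0.07), and none passed. Their mean was 11.45, 11.61, 11.54 and 11.87 on the labelled-null arrays, against 11.56, 11.39, 11.65 and 11.65 on the control arrays. Ivl, the cornified envelope precursor involucrin, was at 11.28 ± 0.39 on the labelled-null arrays and 11.14 ± 0.21 on the control arrays (SD, n = 4 each; limma adjusted p = 0.9995) and differed by -0.04 without labelled-null array 4. Krtdap, a secreted protein of differentiating keratinocytes, differed by 0.12 with the same adjusted p.

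Lgals7 deviations correlated with those of the suprabasal mean at r = 0.81 and Lgals3 deviations at 0.73, falling to 0.63 and 0.41 without labelled-null array 4. The values were not particular to this list. With the mean of 7 sebocyte genes r was 0.81 for Lgals7 and 0.78 for Lgals3, and 0.59 and 0.44 without that array. Far2, a gene of that list, read 10.58 on labelled-null array 4, against 7.68 to 8.98 on the other 7 arrays. Its SD on the labelled-null arrays was 1.27, and none of the other tested sebocyte genes had an SD there above 0.43. The sebocyte mean thus rests largely on 1 gene, and its r does not stand for sebocyte genes as a set. With the dermal fibroblast mean r was -0.88 for Lgals7 and -0.84 for Lgals3. Lgals3 also ran against the mean of 8 skeletal muscle genes at r = -0.95, and at -0.94 without that array. With macrophage genes, the other known source of Lgals3, r was -0.68, and -0.46 without labelled-null array 4. The muscle mean was lowest on labelled-null array 4 (11.40) and highest on array 3 (11.91) of the same group, against 11.54 to 11.78 on the control arrays. The share of epidermis and muscle in each RNA was not measured, and its part in the spread of Lgals3 was not tested.

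Lgals1, the galectin of mesenchymal cells, varied little. It ran from 12.77 to 12.95 on the labelled-null arrays, against 12.89 to 12.96 on the control arrays, a difference of -0.06 (SE 0.05) that was below the SD of 0.08 on the labelled-null arrays. Labelled-null array 4 was the lowest. That array was also the lowest for the mean of 9 dermal fibroblast genes, at 11.76 against 11.86 to 11.93 over the other 7 arrays. Lgals1 deviations correlated with those of this mean at r = 0.81, or 0.61 without labelled-null array 4. The value was not particular to Lgals1: Lgals4 correlated with the same mean at r = 0.86, or 0.60 without that array. Of the 9 fibroblast genes 6 lay below control and 3 above (median -0.06), and none passed. A processed pseudogene copy of Lgals1 is annotated in RefSeq, and signal from it cannot be told apart from Lgals1 with certainty.

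Of the tandem-repeat galectins other than Lgals12, none differed by more than the SD of its more variable group. Lgals4, best known from gut epithelium, ran from 6.95 to 7.10 on the labelled-null arrays, against 7.06 to 7.11 on the control arrays, a difference of -0.05 (SE 0.05). A near-identical neighbour of Lgals4 exists in some laboratory mouse strains, so its row is uncertain on a mixed background. Lgals8, which marks damaged endosomes for autophagy, ran from 8.79 to 9.01 on the labelled-null arrays, against 8.74 to 8.96 on the control arrays, a difference of 0.04 (SE 0.07). Lgals9 is induced by interferon and is a ligand of TIM-3, a receptor protein found on T cells. It ran from 8.93 to 9.23 on the labelled-null arrays, against 9.03 to 9.21 on the control arrays, a difference of -0.05 (SE 0.07). Array 2 was the highest of its own group for Lgals9 both among the labelled-null arrays and among the control arrays. Lgals9 deviations correlated with the interferon mean at r = 0.68, and at 0.48 without labelled-null array 2.

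Within the arrays of low and of high Xist, 2 against 2 each, Lgals3bp differed by -0.57 and -0.90, and Lgals12 by -0.29 and -0.19. Lgals9 differed by 0.06 among the Xist-low arrays and by -0.15 among the Xist-high ones, and Lgals1 by 0.01 and -0.13. The other 4 genes kept 1 sign in both, with absolute differences of at most 0.12. Whether these differ between the Xist classes was not tested.

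**Figure D3:**
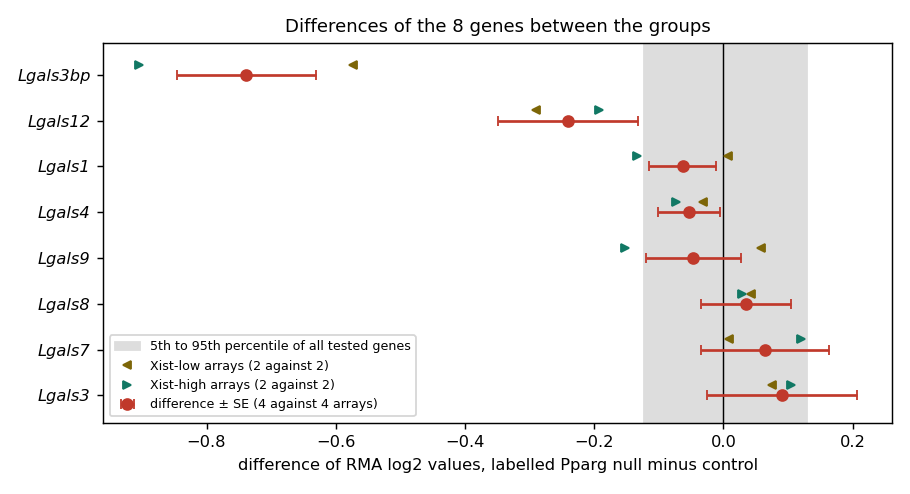
Difference of mean RMA log2 values, labelled Pparg null minus control (x axis), of the 8 genes (rows) with bars for ± 1 SE from 4 against 4 arrays; triangles give the difference among Xist-low and Xist-high arrays (2 against 2), and the grey band the 5th to 95th percentile of all 15174 tested genes (-0.12 to 0.13). Lgals3bp at -0.74 and Lgals12 at -0.24 lie outside the band, and the other 6 lie within it.

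Over the 8 genes, 5 lay below control and 3 above, and the median difference was -0.05. The spread was uneven: 6 of the 8 had an absolute difference of at most 0.09, where the median absolute difference over all tested genes was 0.04. Lgals3bp had a larger absolute difference than 99.8% of tested genes, and the other galectins besides Lgals12 lay between 41.0% (Lgals8) and 79.6% (Lgals3). These positions describe genes chosen with the contrast in view. Of 3 related genes outside the 8, both that were tested missed the threshold. Lgalsl, a galectin-related protein without sugar binding, differed by 0.06 (SE 0.14) and read 10.28 on labelled-null array 4, above 9.57 to 9.85 on the other 7 arrays. Grifin, a galectin-like lens protein, differed by -0.01 (SE 0.06), and Lgals2, a prototype galectin, lay under the brightness filter on all 8 arrays and was not tested.

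The tested genes whose values over the 8 arrays were most like those of Lgals3bp, by Pearson's r, were Nek6 (0.98), Clba1 (0.97), Sphk2 (0.97), Slc5a3 (0.96) and Clec2g (0.96). The difference between the groups enters this r. Clec2g, a C-type lectin, was the 1 of the 5 past limma's threshold, at 6.32 ± 0.29 on the labelled-null arrays and 7.82 ± 0.19 on the control arrays (SD, n = 4 each; adjusted p = 0.00887). The mitotic kinase Nek6 spanned far less, at 8.79 ± 0.03 on the labelled-null arrays and 8.87 ± 0.02 on the control arrays. After subtraction of group means the 5 most like were Mzt2, Cdpf1, Fcho2, Zbtb37 and Cdk6, at r = 0.94 to 0.97, all with differences between -0.20 and 0.06. For Lgals12 they were Map9 (0.96), Abcb6 (0.95), Ankib1 (0.93), Tfam (0.92) and Adgrg1 (0.92) over the 8 arrays, and Fbxo45, Ccdc47, Tmem126a, Map9 and Ankib1 after subtraction of group means, at r = 0.96 to 0.98. None of these 8 genes of the Lgals12 lists was past limma's threshold, and none is in the white adipocyte list. With 8 arrays and 15174 genes such values of r are a ranking, not evidence of a relation.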

How the data were processed

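Biotin-labelled product of 100 ng RNA per sample went onto 1 Affymetrix array. The authors produced the deposited log2 table in Affymetrix Expression Console by the RMA method (per the submitters' processing notes), so quantile normalization hides any shift shared by all genes and probe summaries hide single exons. The sources used here give neither version nor annotation build. Of 35556 rows, 21789 had 1 gene symbol; 21698 symbols were updated through gene IDs to RefSeq (GRCm38.p6), the brightest row by mean was kept per gene, and 15174 of 19938 genes above the 30th percentile of at least 4 arrays were tested.

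Differences are labelled Pparg null minus control, fitted by limma (version 3.58.1, R 4.3.3), two-sided, Benjamini-Hochberg threshold 0.05. The step was also run on simulated data with independent noise. The differences set there were larger than those of all members but Lgals3bp, so the run says nothing about differences as small as theirs. The members, gene lists and likeness ranking were chosen with earlier results of these data known. Named are the members, the 5 tested protein-coding genes most like Lgals3bp and Lgals12 by Pearson's r, and, per list, those past the threshold or among the 4 smallest p. Far2 is named besides for its spread, and is not among the named genes counted in the sections below. Alternatives covered filters, scalings, priors, weights, blocks, row choice and left-out arrays; the fit without labelled-null array 4 and control array 1 was added after seeing the data. Same-numbered arrays deviated from group means at r = -0.31, 0.20, 0.05 and -0.03. These values differ in sign, and whether the numbers pair the arrays cannot be settled from them or from the labels.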

Additional observations from a re-analysis of the deposited data

Results flagged for a closer look

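Of 130 groups of 4 values examined (the 8 genes, other genes named, and list means), 9 held an array set well apart from the other 3, and chance alone does so in about 1 of 20. No explanation was tested. Among the 8 genes, Lgals3bp read 7.63 on labelled-null array 2, against 7.14 to 7.22 on the remaining 3. Lgals3 read 10.71 on control array 1, against 10.52 to 10.55 on the other control arrays, and Lgals4 read 7.06 on that array, against 7.11 on each of the others. The same control array was far from its group for Lgals2 (4.28, against 4.04 to 4.08, all under the brightness filter), for Zbtb37 (7.97, against 8.03 to 8.04) and for the mean of the white adipocyte list (8.10, against 8.27 to 8.29). Oas2 read 6.95 on control array 2, against 7.05 to 7.07. Fbxo45 read 8.19 on labelled-null array 1, against 8.25 to 8.26, and the mean of the dermal fibroblast list was 11.76 on labelled-null array 4, against 11.88 to 11.90.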

How the results depend on the processing

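The Lgals3bp difference stayed between -0.85 and -0.67 over 19 alternative fits, and was -0.85 to -0.69 without 1 array. Of the other 7 genes, 4 lay below control, and 3 to 6 did without 1 array; Lgals7, Lgals3, Lgals8 and Lgals9 each changed sign when 1 array was left out (labelled-null array 4 for Lgals7 and Lgals3, control array 4 and labelled-null array 3 for Lgals8 and Lgals9). Over all genes 18 passed, and 1 with the replicate block, where it is not known whether the numbers pair the arrays. The number was 11 with Xist class as a block, 1 with every row on its own and 3 at an adjusted p of 0.01. It was 3 to 15 without 1 array. Of the genes in lists, 6 passed, 1 with the replicate block, with every row on its own and at an adjusted p of 0.01, and 1 to 6 without 1 array. Fits with fewer arrays have less power, and the cause of other changes was not tested. Of 791 values of 42 other named genes, 776 kept their sign. The 15 that did not, none past the threshold, were these: Zbtb37 with array medians subtracted (-0.0092) and without 1 array (-0.0448 to 0.0267 over these), Fcho2 with array weights (0.013) and without 1 array (-0.0582 to 0.0053), Grifin without 1 array (-0.0524 to 0.0209), Lgalsl with array weights (-0.00014), without 1 array (-0.1013 to 0.1338) and without labelled-null array 4 and control array 1 together (-0.0604), Ivl without 1 array (-0.0435 to 0.2583) and without these 2 together (-0.0401), and Ccdc47 without 1 array (-0.00042 to 0.0509).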

Other observations

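Few genes of other skin cell types passed the test. Of 8 endothelial genes 4 lay below and 4 above (median 0.00), of 8 skeletal muscle genes 5 lay below and 3 above (median -0.03), and of 8 basal epidermis genes 7 lay below and 1 above (median -0.03); none of these passed limma's adjusted p of 0.05. Of 5 genes on the array from the joint list of T cells and Langerhans cells, 3 were tested. These all lay above control, with a median of 0.02, and they do not stand for either cell type alone. Sebocyte genes stood further from control: of 7 tested 5 lay below and 2 above (median -0.18). Of these 1 passed, where 0.119% of all tested genes did, and 4 had groups that do not overlap, where 2.45% did. Those 4 did not all lie on the same side of control. Mgst1, a microsomal glutathione transferase, fell to 8.77 ± 0.04 on the labelled-null arrays, against 9.31 ± 0.12 on the control arrays (SD, n = 4 each; limma adjusted p = 0.0196). Mgst1 passed in 11 of 19 alternative fits.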
